A study of Mus musculus with 6 samples.

Results

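The neuromuscular junction genes described here are 10 genes named by symbol: the 5 muscle subunits of the nicotinic acetylcholine receptor (Chrna1, Chrnb1, Chrnd, Chrne and Chrng), the receptor-clustering genes Musk, Dok7 and Rapsn, the acetylcholinesterase anchor Colq, and the growth factor carrier Fgfbp1. They were 10 of the 22564 rows of protein-coding genes in the table, and each symbol matched 1 row. Total RNA from mouse quadriceps, a fast thigh muscle, was sequenced in 3 knockout libraries (MCK-Cre+/-, Fbxw7 flox/flox) and 3 control libraries (Fbxw7 flox/flox). Both groups carried the floxed Fbxw7 alleles. Fbxw7 encodes the F-box protein that brings substrates to a ubiquitin ligase, and the muscle creatine kinase promoter that drives Cre is active in muscle fibres. Since controls lacked Cre, effects of Cre itself and of losing Fbxw7 cannot be told apart. The labels give no age or sex, nor whether the 3 libraries of a group came from 3 mice, so p-values reflect only how far these libraries spread, which may be technical.

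At the neuromuscular junction a motor axon releases acetylcholine onto a small patch of the fibre where receptors are packed. Agrin from the nerve acts through Lrp4 on the kinase MuSK, which works with its adaptor Dok7, and rapsyn then holds receptors in clusters. Fetal receptors hold the gamma subunit, encoded by Chrng, which the epsilon subunit, encoded by Chrne, replaces in adult muscle. Receptor genes are transcribed mainly by the nuclei under the nerve ending, and in denervated muscle other nuclei of the fibre take them up again.

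Levels are FPKM, fragments relative to transcript length and sequencing depth as scaled by the authors, and are given for libraries 1, 2 and 3 of each group in that order. Changes are log2(FPKM + 0.1) of knockout minus control with their standard error (SE), which understate the change of low genes, and adjusted p-values are from limma over 11659 tested genes with a threshold of 0.05. Estimated fragments came to between 3150438 and 6704234 in the knockout libraries and between 8435731 and 11783852 in the control libraries. Fbxw7 was at 4.02, 3.86 and 3.81 FPKM in knockout quadriceps, against 6.51, 6.23 and 6.36 FPKM in controls. Its change of -0.69 (SE 0.12, limma adjusted p = 0.0028) matched the labels, with transcript left in every knockout library. The median change of all tested genes was 0.21, so the change of each junction gene relative to that median is also given.

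Of the 10 junction genes, 9 reached the mean of 0.5 FPKM needed for testing. Knockout quadriceps held more transcript of 6 of the 9 and less of 2, while Colq did not pass the test. Over all tested genes, 24.5% were raised and 10.1% were lowered (34.6% in all), and the median change of the 9 was 0.54 against 0.21 for all tested genes. The raised genes were Chrna1, Chrnb1, Chrnd, Chrne, Musk and Dok7, and the lowered genes were Rapsn and Fgfbp1. All 3 knockout values lay above all 3 control values for the same 6 raised genes, as they did for 35.7% of tested genes, and below them for the 2 lowered genes, as for 14.0%. With median-of-ratios scaling, which brought the median of all tested genes to -0.01, 4 junction genes were raised and 2 lowered, while calls over all tested genes went to 1628 raised and 2140 lowered, against 2860 and 1177 with the authors' scaling. The columns headed as counts, scaled to a total without mitochondrial genes, moved the other way: they put the median of all tested genes at 0.46, with 6603 raised and 730 lowered, and 7 junction genes raised and 1 lowered. These are bulk libraries, in which more cells of a type and more RNA per cell cannot be told apart.

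The bases upstream of 5 of these genes are shown because receptor and Musk promoters are known for E-boxes, which myogenic factors bind, and for the N-box, which GABP binds; Fgfbp1 is set beside them as the gene with the largest fall. RefSeq start sites on GRCm38.p6 gave windows for 7 of the 10 genes. Each line holds the 250 bases before the start, 5′ to 3′ on the gene's strand, with CANNTG (E-box) and CCGGAA or TTCCGG (N-box core) in capitals, searched on both strands. The windows are chr2:73580339-73580588 (minus strand) for Chrna1, chr11:69795938-69796187 (minus) for Chrnb1, chr11:70619195-70619444 (minus) for Chrne, chr4:58285712-58285961 (plus) for Musk and chr5:43981800-43982049 (minus) for Fgfbp1.
Chrna1: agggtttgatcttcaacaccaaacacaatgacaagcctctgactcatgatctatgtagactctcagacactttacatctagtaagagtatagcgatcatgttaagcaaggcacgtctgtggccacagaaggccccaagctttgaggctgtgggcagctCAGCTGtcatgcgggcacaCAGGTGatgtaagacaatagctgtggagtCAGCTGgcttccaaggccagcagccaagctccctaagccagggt
Chrnb1: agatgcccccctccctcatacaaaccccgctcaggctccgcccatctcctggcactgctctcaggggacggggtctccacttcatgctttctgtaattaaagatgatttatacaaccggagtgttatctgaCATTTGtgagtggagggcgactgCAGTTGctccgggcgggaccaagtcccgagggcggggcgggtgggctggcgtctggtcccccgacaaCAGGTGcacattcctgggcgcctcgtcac
Chrne: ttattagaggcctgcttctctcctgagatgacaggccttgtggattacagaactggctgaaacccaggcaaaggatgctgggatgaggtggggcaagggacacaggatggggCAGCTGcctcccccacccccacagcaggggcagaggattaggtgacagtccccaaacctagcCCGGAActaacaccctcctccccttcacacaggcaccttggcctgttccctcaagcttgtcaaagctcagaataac
Musk: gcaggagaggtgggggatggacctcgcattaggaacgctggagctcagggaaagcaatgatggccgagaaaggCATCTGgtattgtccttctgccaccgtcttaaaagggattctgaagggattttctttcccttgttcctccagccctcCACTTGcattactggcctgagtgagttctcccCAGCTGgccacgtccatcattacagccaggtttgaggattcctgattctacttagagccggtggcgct
Fgfbp1: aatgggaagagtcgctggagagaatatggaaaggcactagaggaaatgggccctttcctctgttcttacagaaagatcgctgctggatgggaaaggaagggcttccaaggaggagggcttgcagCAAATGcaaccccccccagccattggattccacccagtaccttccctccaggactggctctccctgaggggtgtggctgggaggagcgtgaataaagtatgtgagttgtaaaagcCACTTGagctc

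The 7 genes had 8 windows, as Dok7 had 2. The second Dok7 window and the Chrng window lay wholly inside the gene positions given in this text, which come from another annotation. An E-box stood in 7 of the 8, against 66.2% of 32851 RefSeq mouse windows of that length, and the window without one was the second of Dok7. The form CAGCTG, which is itself an E-box, stood in 4 of 8 (Chrna1, Chrne, Chrng and Musk), against 13%. In Chrna1, E-boxes began 92, 73 and 44 bases before the start, and in Musk 177, 100 and 68 bases before it. The N-box core stood in 1 of 8, 76 bases before the start of Chrne, against 12.0% of windows. A match describes letters only and shows no binding.

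**Figure D1:**
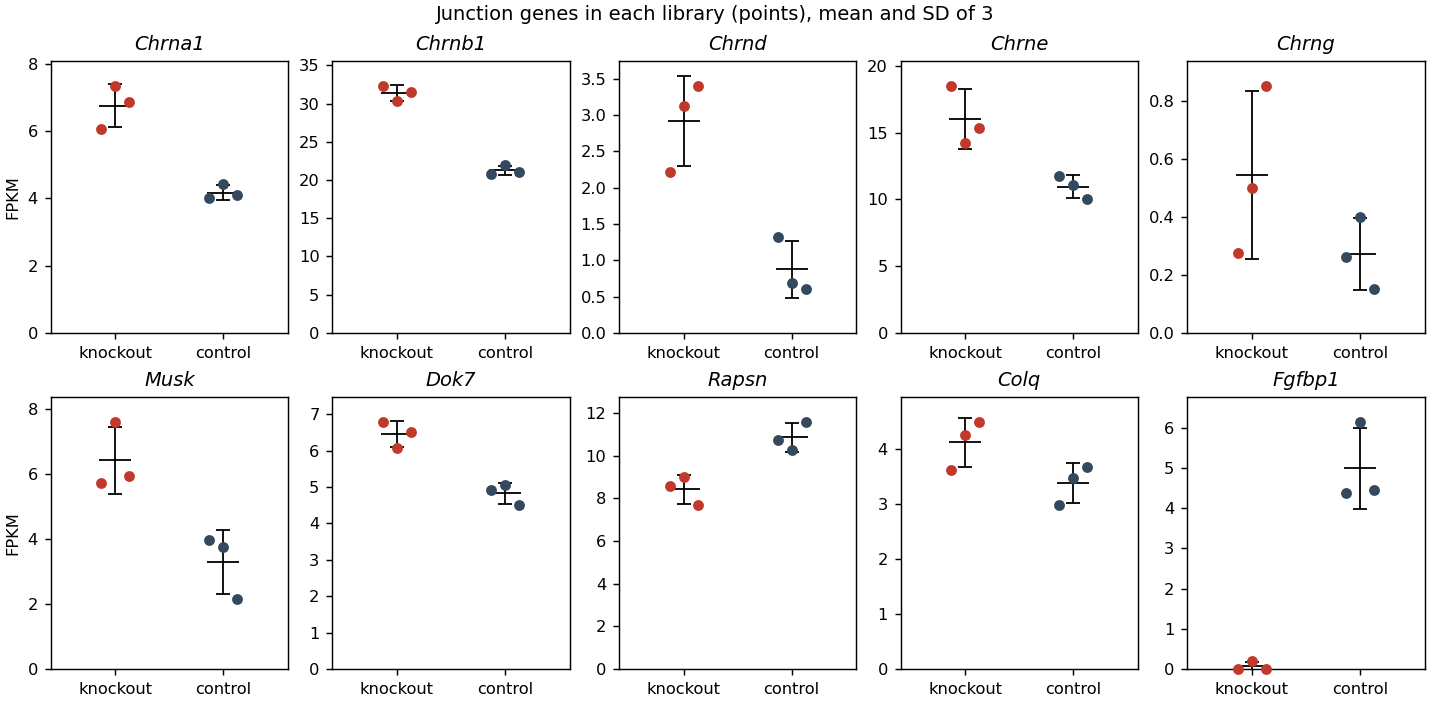
Level in FPKM (vertical axes, each from 0) of the 10 junction genes in each library, with knockout left and control right. Points are libraries and bars are the mean and SD of 3. Knockout points lie above control points for 6 genes, below them for Rapsn and Fgfbp1, and overlap them for Chrng and Colq.

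The 4 receptor subunit genes that were tested all rose in knockout quadriceps, with a median change of 0.62. Chrna1 (ENSMUSG00000027107, chr2:73563215-73580338, minus strand) encodes the alpha subunit, which holds most of the acetylcholine binding site. It was at 6.05, 7.34 and 6.87 FPKM in knockouts, against 4.0, 4.43 and 4.09 FPKM in controls. Every knockout library was higher than every control library. The means were 6.75 ± 0.651 and 4.17 ± 0.229 FPKM (SD, n = 3 each), a 1.62-fold difference with a log2 change of 0.68 (SE 0.13, limma adjusted p = 0.00498), or 0.47 above the median gene.

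Chrnb1 (ENSMUSG00000041189, chr11:69784036-69795943, minus strand) encodes the beta subunit and was the most abundant of the 10 in both groups. Its levels were 32.3, 30.3 and 31.5 FPKM in knockouts, against 20.8, 21.9 and 21.1 FPKM in controls. The groups stood far apart relative to their spread, at 31.4 ± 1.02 and 21.3 ± 0.583 FPKM (SD, n = 3 each). The difference was 1.47-fold, with a log2 change of 0.56 (SE 0.08, limma adjusted p = 0.00109), or 0.35 above the median gene.

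Chrnd (ENSMUSG00000026251, chr1:87190607-87200070, plus strand), which encodes the delta subunit, had the largest rise of the 9 tested genes. It was at 2.22, 3.13 and 3.4 FPKM in knockouts, against 1.32, 0.692 and 0.609 FPKM in controls. Knockout library 1 and control library 1 came nearest to each other, without overlap. The means of 2.91 ± 0.621 and 0.873 ± 0.386 FPKM (SD, n = 3 each) differed 3.34-fold, with a log2 change of 1.68 (SE 0.30, limma adjusted p = 0.00379), or 1.47 above the median gene.

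Chrne (ENSMUSG00000014609, chr11:70614883-70619216, minus strand), the adult epsilon subunit, was at 18.5, 14.2 and 15.4 FPKM in knockouts, against 11.8, 11.1 and 10.1 FPKM in controls. Knockout library 1 was the highest, and the groups did not overlap. Its log2 change was 0.54 (SE 0.13, limma adjusted p = 0.0118), a 1.46-fold difference and 0.33 above the median gene. That call ended with median-of-ratios scaling (0.31, limma adjusted p = 0.0972) and with quantile normalization (0.38, limma adjusted p = 0.0634).

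Chrng (ENSMUSG00000026253, chr1:87204657-87212694, plus strand), the fetal gamma subunit, stayed low in both groups. It was at 0.276, 0.5 and 0.851 FPKM in knockouts, against 0.262, 0.398 and 0.15 FPKM in controls, and the ranges overlapped. These values rest on about 2, 9 and 12 fragments in the knockout libraries and 7, 11 and 3 in the control libraries. Its mean over the 6 libraries was under the level for testing, and an exact two-sided permutation test gave p = 0.2, where 0.1 is the smallest that 3 against 3 libraries allow. Summed over libraries, 23 fragments in knockouts and 21 in controls gave a ratio of 2.16 per fragment sequenced, with an exact 95% interval of 1.14 to 4.10 that covers counting error only and not the spread between libraries.

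The subunits are set together below, since FPKM is per length. Their summed level was 59.4, 55.5 and 58.0 FPKM in knockouts, against 38.2, 38.5 and 36.0 FPKM in controls. The beta subunit made up 54.4% of the sum in knockouts and 56.7% in controls, the epsilon subunit 27.8% and 29.2%, and the alpha subunit 11.8% and 11.1%. The delta share was 5.08% ± 1.17 in knockouts and 2.31% ± 0.984 in controls (SD, n = 3 each), with no overlap (exact two-sided permutation p = 0.1, the smallest possible). The alpha share overlapped between groups (exact permutation p = 0.5). The log2 ratio of Chrng to Chrne, fetal to adult, was -4.74 ± 0.815 in knockouts and -4.95 ± 0.435 in controls (SD, n = 3 each), a difference of 0.21 with overlapping libraries (exact permutation p = 0.8).

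Musk (ENSMUSG00000057280, chr4:58285960-58374303, plus strand), the receptor kinase that agrin and Lrp4 activate, was higher in knockouts. Its levels were 5.73, 7.61 and 5.95 FPKM in knockouts, against 3.98, 3.74 and 2.17 FPKM in controls. Knockout library 2 was the highest and control library 3 the lowest, and the groups did not overlap. The log2 change was 0.98 (SE 0.24, limma adjusted p = 0.0137), a 1.95-fold difference and 0.77 above the median gene. Without knockout library 2 it was 0.85 and no longer passed (limma adjusted p = 0.0509).

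Dok7 (ENSMUSG00000044716, chr5:35056766-35087839, plus strand) encodes the cytoplasmic adaptor that binds and activates MuSK. It was at 6.79, 6.06 and 6.50 FPKM in knockouts, against 4.91, 5.06 and 4.50 FPKM in controls, with no overlap. Its log2 change of 0.41 (SE 0.12, limma adjusted p = 0.0308) was the smallest rise that passed, 1.34-fold and 0.20 above the median gene. The call ended in 9 of 16 alternatives, among them every one that left out a library (limma adjusted p between 0.0543 and 0.0787) and median-of-ratios scaling (0.19, limma adjusted p = 0.225).

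Rapsn (ENSMUSG00000002104, chr2:91035620-91045729, plus strand), which encodes the scaffold rapsyn that anchors receptors in clusters, was lower in knockouts while the receptor subunits were higher. It was at 8.56, 9.02 and 7.69 FPKM in knockouts, against 10.7, 10.3 and 11.6 FPKM in controls. All knockout libraries lay below all control libraries. The means of 8.42 ± 0.672 and 10.8 ± 0.671 FPKM (SD, n = 3 each) gave a log2 change of -0.36 (SE 0.11, limma adjusted p = 0.0361), and -0.57 relative to the median gene. The call ended in 9 of 16 alternatives, among them every one that left out a library (limma adjusted p between 0.0530 and 0.108) and the columns headed as counts (-0.28, limma adjusted p = 0.213). The change was -0.59 with median-of-ratios scaling (limma adjusted p = 0.0077) and -0.05 with the count columns without mitochondrial genes (limma adjusted p = 0.734).

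A ratio within a library does not depend on scaling between libraries. The ratios to Chrnb1 were chosen after the values were seen. Rapsn per Chrnb1 was 0.265, 0.298 and 0.244 in knockouts, against 0.514, 0.468 and 0.549 in controls. Every knockout library held less Rapsn per Chrnb1 than every control library. This was fixed in advance, as all knockout values lay below all control values for Rapsn and above them for Chrnb1. The permutation p of this ratio is therefore no further support. The log2 difference was -0.93 (exact two-sided permutation p = 0.1, the smallest possible) and -0.87 with the columns headed as counts, and it ran between -1.0 and -0.86 when a library was left out. Chrnd per Chrnb1 was 0.0685, 0.103 and 0.108 in knockouts, against 0.0632, 0.0316 and 0.0289 in controls, a 2.37-fold difference (exact permutation p = 0.1). Musk per Chrnb1 averaged 0.206 in knockouts and 0.155 in controls and overlapped (exact permutation p = 0.3).

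**Figure D2:**
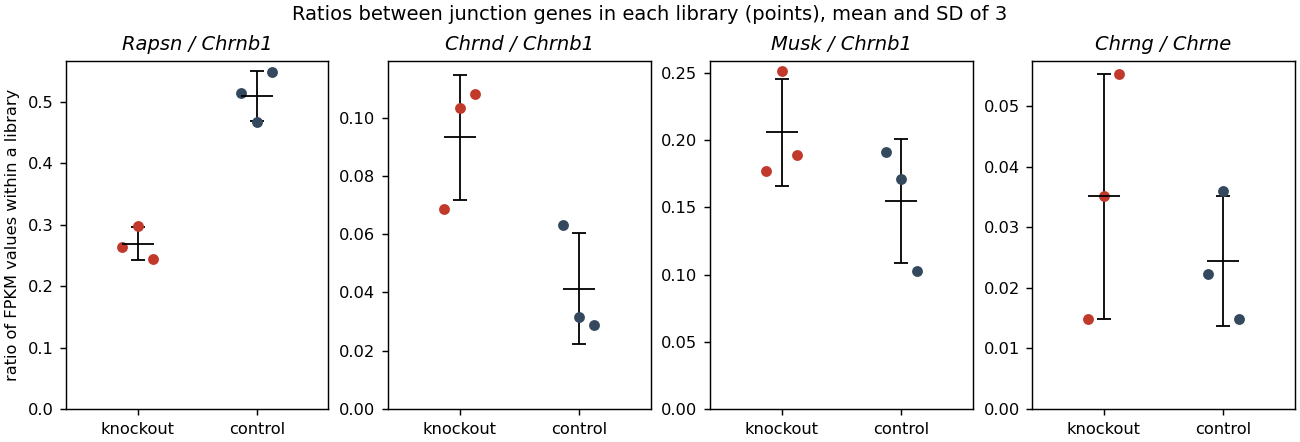
Ratio of FPKM values within each library (vertical axes, no unit, from 0) for 4 pairs of junction genes, with knockout left and control right. Points are libraries and bars are the mean and SD of 3. Rapsn per Chrnb1 lies lower in every knockout library and Chrnd per Chrnb1 higher, while the other pairs overlap.

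Colq (ENSMUSG00000057606, chr14:31523082-31591343, minus strand), the collagen tail that anchors acetylcholinesterase in the synaptic basal lamina, did not pass the test. It was at 3.62, 4.26 and 4.50 FPKM in knockouts, against 2.98, 3.49 and 3.69 FPKM in controls. The groups overlapped, with a log2 change of 0.28 (SE 0.16, limma adjusted p = 0.197), or 0.07 above the median gene. It passed in 1 of 16 alternatives, the count columns without mitochondrial genes (0.55, limma adjusted p = 0.00592). Its exons share 199 bases with the predicted gene Gm49387 on the same strand, so its reads may have been divided between them.

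Fgfbp1 (ENSMUSG00000048373, chr5:43978858-43981779, minus strand) encodes a secreted protein that releases fibroblast growth factors from the matrix and, in mice, is made by muscle and slows the loss of junctions. It had the largest fall of the 9 tested genes. It was listed at 0, 0.198 and 0 FPKM in knockouts, against 4.38, 6.15 and 4.45 FPKM in controls. The knockout libraries held about 0, 2 and 0 fragments, against 66, 95 and 50 in the controls. Per fragment sequenced, the knockout level was 0.0187 of the control level, with an exact 95% interval of 0.00224 to 0.0682 that covers counting error only. A count of 0 allows up to 0.744 FPKM in knockout library 1 and 0.379 FPKM in knockout library 3, both below every control value. The log2 change was -5.13 (SE 0.45, limma adjusted p = 8.13e-05), and it ran between -7.49 with a pseudocount of 0.01 FPKM and -2.48 with one of 1 FPKM, passing in each of the 16 alternatives. Relative to the median gene it was -5.34. It reached the level for testing through its control libraries alone.

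**Figure D3:**
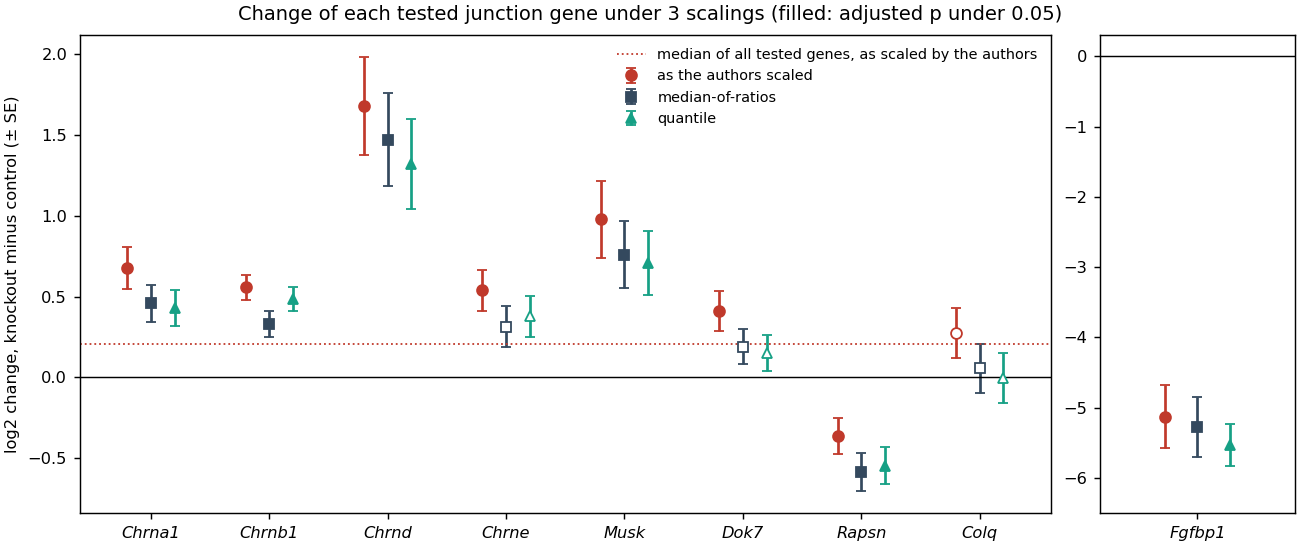
Log2 change, knockout minus control, with its SE (vertical axes) for the 9 tested junction genes under the authors' scaling, median-of-ratios scaling and quantile normalization. Filled symbols passed an adjusted p of 0.05. Chrne and Dok7 pass with the authors' scaling alone of these 3, and Colq lies at 0.00 with quantile normalization.

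By mean level the order in knockouts was Chrnb1, Chrne, Rapsn, Chrna1, Dok7, Musk, Colq, Chrnd, Chrng and Fgfbp1. In controls it was Chrnb1, Chrne, Rapsn, Fgfbp1, Dok7, Chrna1, Colq, Musk, Chrnd and Chrng. Neighbours whose libraries overlapped were Chrna1 with Dok7 and Dok7 with Musk in knockouts, and Chrne with Rapsn, Fgfbp1 with Dok7 and Colq with Musk in controls. Chrne thus stood clear of Rapsn in knockouts and not in controls. Over the 6 libraries, the patterns most like Chrnd were those of Folr2, Camkmt and Dusp15 (Pearson r of 0.999, 0.998 and 0.997), and Cav3 and Pkdcc were among those most like Fgfbp1 (0.999 and 0.998). Such values describe 2 groups set apart: 1543 tested genes had an r over 0.9 with Chrnd and 893 with Fgfbp1.

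Of 15 agrin signalling genes, all tested, 4 rose (26.7%) and 1 fell (6.67%), near the 24.5% and 10.1% of all tested genes, with a median change of 0.17 against 0.21. The number raised was 11 with the count columns without mitochondrial genes, a setting that raised 6603 of all tested genes, against 2860 with the authors' scaling. Pak1, a kinase in the path from agrin to receptor clustering, averaged 26.6 ± 1.03 FPKM in knockouts and 10.2 ± 0.486 FPKM in controls (SD, n = 3 each; log2 change 1.38, limma adjusted p = 1.77e-05). Crkl, an adaptor that binds phosphorylated Dok7, also rose (0.84, limma adjusted p = 0.00734), as did the chaperone gene Hsp90b1 (0.53, limma adjusted p = 0.00109) and Apc (0.65, limma adjusted p = 0.0353), which lost its call in 8 of 16 alternatives. The gene that fell was Fnta, a subunit of a farnesyltransferase (-0.41, limma adjusted p = 0.00827), and its call was lost with the count columns without mitochondrial genes (-0.15, limma adjusted p = 0.175). Agrn and the agrin receptor gene Lrp4, named after their values were seen, did not pass, with log2 changes of 0.28 and 0.72 (limma adjusted p = 0.209 and 0.12), and Agrn was at -0.04 with quantile normalization. Both passed with the columns headed as counts, at 0.58 and 0.83 (limma adjusted p = 0.0144 and 0.016), and with those columns without mitochondrial genes, at 0.81 and 1.07 (limma adjusted p = 0.000173 and 0.00314).

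Of 11 junction scaffold genes, 10 were tested, of which 5 rose and 1 fell, with a median of 0.43. For comparison, 24.5% of all tested genes rose and 10.1% fell, with a median of 0.21. Nes, the intermediate filament nestin, was at 41.7, 43.2 and 40.7 FPKM in knockouts, against 5.59, 5.76 and 5.12 FPKM in controls. These groups were far apart, with a log2 change of 2.91 (limma adjusted p = 6.34e-07). Macf1, a crosslinker of microtubules and actin, rose by 1.23 (limma adjusted p = 2.29e-05). Utrn, which encodes the dystrophin relative found at junctions, rose by 0.88 (limma adjusted p = 0.0126), with the call lost under quantile normalization (0.56, limma adjusted p = 0.052). Dtna rose by 0.57 (limma adjusted p = 0.00593) and Plec by 0.77 (limma adjusted p = 0.000886). Of 12 basal lamina genes, 7 were tested, of which 2 rose (Hspg2, the proteoglycan perlecan, and Nid2, a nidogen) and 0 fell, a raised share of 28.6% against 24.5% of all tested genes. The number raised ran between 0, with median-of-ratios scaling among others, and 7, with the count columns without mitochondrial genes. Over all tested genes, 1628 and 6603 rose with these settings in turn. The calls of Hspg2 and Nid2 were lost in 4 and 9 of 16 alternatives. Ache, the esterase that the Colq tail anchors, overlapped between groups (log2 change 0.23, limma adjusted p = 0.199). It passed without knockout library 1 (0.35, limma adjusted p = 0.0401) and with the count columns without mitochondrial genes (0.51, limma adjusted p = 0.00124).

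Among 9 genes that regulate synaptic transcription, 4 of 7 tested rose (57.1%) and 0 fell, against 24.5% and 10.1% of all tested genes. The median of the list was 0.78, against 0.21 for all tested genes. With the count columns without mitochondrial genes, where 6603 of all tested genes rose, 7 of the list rose. With median-of-ratios scaling, where 1628 of all tested genes rose, 1 of the list rose, Etv5. This gene, an ETS factor needed for synaptic gene expression in mice, was at 7.01, 5.96 and 6.97 FPKM in knockouts, against 2.46, 2.12 and 1.63 FPKM in controls. The groups were clearly apart (log2 change 1.65, limma adjusted p = 0.000263). Gabpa and Gabpb1, the partners of the GABP factor, passed with 0.78 and 0.99 (limma adjusted p = 0.0247 and 0.0261), and lost their calls in 8 and 7 of 16 alternatives. Erbb3, a neuregulin receptor, passed with 0.83 (limma adjusted p = 0.0337) and lost its call in 8 of 15. Of 9 transcripts known to be enriched in nuclei under the nerve ending, 5 of 8 tested rose (62.5%) and 0 fell, with a median of 0.68. The shares of all tested genes are those given above, and with so few genes in either list a count of 0 lowered says little. Etv5, Ache and Lamb2 are counted in other lists too. Prkar1a (0.63, limma adjusted p = 0.000618) and Gramd1b (1.35, limma adjusted p = 0.0013) rose, as did Phldb2 (0.73, limma adjusted p = 0.00435) and Vav3 (0.99, limma adjusted p = 0.0406), which lost its call in 11 of 15 alternatives and reached the level for testing through its knockout libraries alone.

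Of 10 genes for fibroblast growth factors, their receptors and a related carrier, 7 were tested, of which 2 rose and 2 fell (28.6% each). The raised share was near the 24.5% of all tested genes, of which 10.1% fell. Fgf1 averaged 18.3 ± 2.98 FPKM in knockouts and 8.32 ± 0.823 FPKM in controls (SD, n = 3 each; log2 change 1.12, limma adjusted p = 0.000607). Fgfr1, the receptor with the highest level of these in both groups, averaged 17.0 ± 1.38 FPKM in knockouts and 25.3 ± 0.529 FPKM in controls (-0.57, limma adjusted p = 0.00206). Fgfr3 rose by 0.85 (limma adjusted p = 0.0253), and Fgfr4 fell by 1.05 (limma adjusted p = 0.034), each with the call lost in 6 of 15 alternatives. Fgfr4 reached the level for testing through its control libraries alone.

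Of 18 genes known to respond when muscle loses its nerve, 16 were tested, of which 9 rose (56.25%) and 4 fell (25.0%). Over all tested genes 24.5% rose and 10.1% fell, so calls in both directions occur there too, and both shares were higher in this list. The list was chosen with earlier results of these data known, and no set test was run. The median of the list was 0.54, against 0.21 for all tested genes. Of those that rose, Ankrd1, a stretch-responsive ankyrin repeat protein, averaged 85.8 ± 4.62 FPKM in knockouts and 14.4 ± 0.935 FPKM in controls (SD, n = 3 each; log2 change 2.57, limma adjusted p = 6.64e-07), and Arpp21 changed by 1.73 (limma adjusted p = 0.000103). Ncam1, a cell adhesion molecule, was at 6.55, 4.94 and 5.24 FPKM in knockouts, against 1.26, 1.31 and 0.530 FPKM in controls (log2 change 2.40, limma adjusted p = 0.000701). Runx1, a transcription factor, averaged 2.32 ± 0.451 FPKM in knockouts and 0.482 ± 0.111 FPKM in controls (SD, n = 3 each; 2.06, limma adjusted p = 0.00063). Gdf5, a ligand of the BMP family, rose by 3.23 (limma adjusted p = 0.000269), and both Runx1 and Gdf5 reached the level for testing through their knockout libraries alone. Gadd45a rose by 0.71 (limma adjusted p = 0.00138) and Cdkn1a, a cell cycle inhibitor, by 0.68 (limma adjusted p = 0.00327). Myog, a myogenic factor, rose by 0.54 (limma adjusted p = 0.0344) and Hdac4, a corepressor, by 0.35 (limma adjusted p = 0.0445), with the calls lost in 7 and 9 of 16 alternatives. Trim63, a ubiquitin ligase of muscle loss, averaged 42.4 ± 1.72 FPKM in knockouts and 107 ± 5.30 FPKM in controls (-1.33, limma adjusted p = 6.98e-06). Myh3, embryonic myosin, fell by 2.23 (limma adjusted p = 0.000123), as did Myh8, perinatal myosin, by 0.96 (limma adjusted p = 0.0114) and Fbxo32 by 0.30 (limma adjusted p = 0.0267), and Myod1 overlapped between groups (0.04, limma adjusted p = 0.791) and was at -0.19 with median-of-ratios scaling. The call of Fbxo32 was lost in 7 of 16 alternatives. All of these but Ankrd1, Arpp21 and Trim63 were named after their values were seen.

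**Figure D4:**
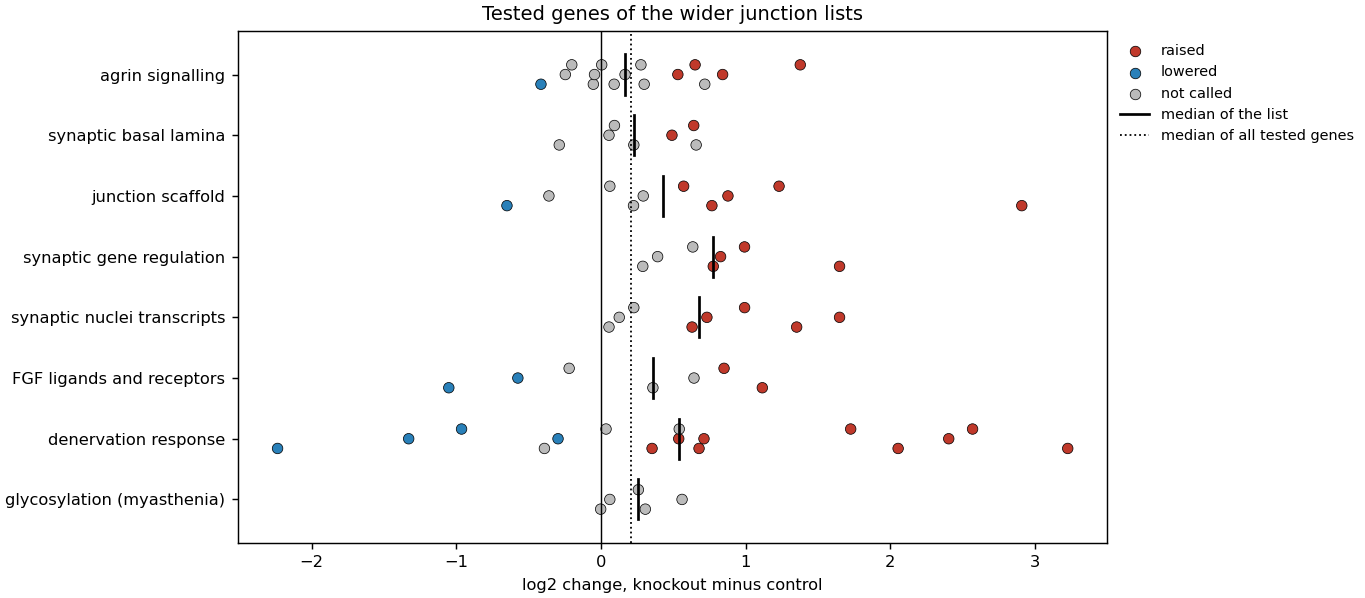
Log2 change, knockout minus control (horizontal axis), of each tested gene in 8 lists of junction genes (rows). Points are genes, red for raised, blue for lowered and grey for not called; the solid mark is the median of the list and the dotted line the 0.21 of all tested genes. The agrin median lies at 0.17 and the synaptic regulation median at 0.78, and the growth factor and denervation rows hold calls on both sides.

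Marker genes of the cells around a junction were measured in the same libraries. Muscle fibre markers were abundant in every library, summing to 21381 to 22675 FPKM in knockouts and 45408 to 50032 FPKM in controls. Of these 7, 5 fell (71.4%) and 2 rose (28.6%), against 10.1% lowered and 24.5% raised over all tested genes. The 12 Schwann cell and myelin markers summed to 118.6 to 129.9 FPKM in knockouts and 78.0 to 86.3 FPKM in controls. Of the 9 tested, 5 rose (55.6%) and 0 fell, and 1 of those that rose, Egr2, was tested through the knockout libraries alone. Markers of B and T cells summed to 19.2 to 20.5 FPKM in knockouts and 0.115 to 0.471 FPKM in controls, and Cd79a and Ms4a1 were at 0 in every control library. The 7 of 9 that were tested reached the level for testing through the knockout libraries alone and were raised. Of the motor axon markers, Chat, Slc5a7 and Syt2 were at 0 in every library and 1 was tested and not called. Of the genes listed for satellite cells and regenerating fibres, Pax7, Myf5 and Calcr were too low to test in these libraries. Cdh15 was raised. Myf6, a myogenic factor that is no specific mark of satellite cells, was not called. The embryonic and perinatal myosins Myh3 and Myh8, listed with them as marks of regenerating fibres, are the genes described above. The part of these differences in the junction results was not tested.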

How the data were processed

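The members and lists were chosen with earlier results of these data known. The authors used cutadapt 1.9.3, HISAT2 2.0.4, Cufflinks and Cuffdiff (no version listed) with build mm10, per the submitters' processing notes. The libraries came from a stranded total RNA kit after removal of ribosomal RNA, per the labels' protocols; whether the strand was used in counting is not stated. The deposited table holds FPKM values, which the authors normalised to transcript length and depth. It also holds a scaled signal headed as counts, deposited by the authors, which is estimated fragments times 1 constant per library. Between 91.9% and 93.1% of these values were whole multiples within 0.1, so no count test was run.

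Rows sharing a symbol were summed. Genes averaging 0.5 FPKM or more over 6 libraries were tested as log2(FPKM + 0.1) with limma 3.58.1 in R 4.3.3 (mean-variance trend), with Benjamini-Hochberg adjustment over all 11659 tested genes and a threshold of 0.05. The fit was also run on simulated data, drawn as normal values on the log scale for genes above 0 in every library. That check does not cover genes with values of 0, such as Fgfbp1, and no result rests on it. Single values used exact two-sided permutation tests over libraries. The text names all members, up to 3 genes with the smallest p per list, the 3 genes most like the members with the largest rise and fall (2 genes picked this way or per list are not reported here), and these genes chosen after their values were seen: Agrn, Lrp4, Apc, Fnta, Utrn, Dtna, Plec, Ache, Erbb3, Phldb2, Vav3, Fgfr4, Ncam1, Runx1, Gdf5, Gadd45a, Cdkn1a, Myog, Hdac4, Myh3, Myh8, Fbxo32 and Myod1. Alternatives covered the pseudocount, filter, scaling, count columns, trend, replicate block and leaving out each library. Positions are from GENCODE M21 on mm10 and promoters from RefSeq on GRCm38.p6.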

Additional observations from a re-analysis of the deposited data

How the results depend on the processing

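Over 16 alternatives the junction genes raised numbered 4 to 7 and those lowered 1 or 2. Lowered junction genes came to 1, not 2, with the columns headed as counts, with those columns scaled to a total without mitochondrial genes, with the replicate block, and in each fit that left out a library (1 to 1). Tested genes raised came to 1628 with median-of-ratios scaling, 1715 with quantile normalization and 6603 with the count columns without mitochondrial genes; those lowered came to 2140 with median-of-ratios scaling and 730 with the count columns without mitochondrial genes. The median of all tested genes was -0.0103 with median-of-ratios scaling and -0.0048 with quantile normalization. With quantile normalization Colq was at -0.0032, Agrn at -0.0435 and Myod1 at -0.13, and with median-of-ratios scaling Myod1 was at -0.19. The count columns without mitochondrial genes put Colq at 0.55 (limma adjusted p = 0.00592). Leaving out a library, the Chrng to Chrne log2 difference ran between -0.15 and 0.66, and the alpha share difference between -0.0903 and 1.43 percentage points. The cause was not tested. The labels do not say whether replicate numbers pair the libraries. Deviations of same-numbered libraries correlated at -0.066, 0.197 and 0.176. Knockout libraries 2 and 3 correlated best with the control of their own number, and knockout library 1 with control library 3 (0.111). With 3 libraries per group this check cannot decide whether they are paired. With the replicate block, 2655 genes were raised and 1173 lowered, and 5 junction genes were raised and 1 lowered. The ratios to Chrnb1 and the count columns without mitochondrial genes were chosen after seeing the data. The count columns divided by transcript length were not run, as the length column spans the locus. Low fragment numbers limit Chrng.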

Other observations

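Of the other 11 nicotinic subunit genes, which are mostly neuronal, 1 was tested, through its knockout libraries alone. Chrna9, a subunit best known from hair cells of the ear, was at 0.982, 0.513 and 2.27 FPKM in knockouts, against 0, 0.0970 and 0.212 FPKM in controls. Its log2 change was 2.67 (SE 0.61, limma adjusted p = 0.0105), and with the columns headed as counts it no longer passed (2.17, limma adjusted p = 0.0508). Chrna3, Chrna6 and Chrnb3 were at 0 in every library.

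Of 5 glycosylation genes whose loss causes congenital myasthenia in people, all tested with limma, 0 rose and 0 fell. Over all tested genes 24.5% rose and 10.1% fell, so with 5 genes these counts say little. The median log2 change of the 5 was 0.26, against 0.21 for all tested genes, and 0 passed an unadjusted limma p of 0.05. With the columns headed as counts scaled to a total without mitochondrial genes, 4 of the 5 rose. That setting put the median of all tested genes at 0.46, with 6603 of them raised. Dpagt1 averaged 7.71 ± 0.520 FPKM in knockouts and 6.43 ± 0.430 FPKM in controls (SD, n = 3 each; limma adjusted p = 0.121).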
